A study of Homo sapiens with 12 samples.

Results

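The mitochondrial ribosomal protein genes are the nuclear genes with MRPL and MRPS symbols. They were taken as every row of the count table whose Ensembl identifier maps to a symbol of MRPL or MRPS followed by a number and at most 1 letter, which leaves out the pseudogenes. The rule found 76 of 57783 genes, 48 with an MRPL and 28 with an MRPS symbol, and 75 of the 76 passed the filter on low counts together with 16327 genes in all. MRPL30 did not pass: it had 15 counts over all 12 libraries. MRPL45 and MRPS21 were not analysed here.

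Mitochondria make a handful of membrane proteins of the respiratory chain on a ribosome of their own. Its RNA comes from the mitochondrial genome, but all of its proteins are encoded in the nucleus, made in the cytosol and imported, so both genomes have to supply the organelle together. By and large MRPS symbols name proteins of the small subunit, which reads the messenger RNA, and MRPL symbols proteins of the large subunit, which joins the amino acids. MRPS18A and MRPS30 are exceptions that sit in the large subunit, and MRPS36 is now placed outside the ribosome.

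Bulk RNA sequencing was done on the triple-negative breast cancer line MDA-MB-468. Cultures spent 10 days in 0.5 µM EPZ5676, which blocks DOT1L, the enzyme that methylates lysine 79 of histone H3, or in DMSO as control. Flow cytometry then parted cells positive (ALDH1+) and negative (ALDH1-) for ALDH1, a marker used to enrich stem-like tumour cells. This gives 4 groups of 3 libraries, both populations in DMSO and both in EPZ5676, all from 1 line, so the replicates, which the labels call biological, measure the spread between cultures of it.

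Many promoters of these genes share short sequence elements, and the sequences of the members whose levels are described below are shown first. Promoter windows of 300 bases, 250 before and 50 after the transcript start, were taken from RefSeq (build GRCh38.p14) for the 67 members found there. The letters AAGATGGC, the core bound by the factor YY1, stood on either strand in 19 of 67 windows (28.4%), against 2.89% of all 35116 windows. Members have a window each, while the set of all windows was not reduced to a window per gene or limited to protein-coding genes. Member windows held a median of 24 CG pairs, against 14 in all windows. The sets are thus unlike, here and in the motif shares below. In 13 of the 19 they lay on the transcript's own strand within its first 30 bases, at positions 7 to 24, and in 10 of these 13 the ATG inside the letters is an annotated start codon (GENCODE 29). Over all promoters with the letters, 40.1% had them in that place. Capitals mark the AAGATGGC letters in 30 bases of 7 of these members, among them MRPS24, MRPS18B, MRPS27, MRPL20 and MRPS7, whose transcripts changed with treatment. In MRPL20 and MRPL51 the ATG is not an annotated start codon.
MRPS24 (chr7:43869479-43869508, minus strand): cgcttggcccAAGATGGCggcctccgtgtg
MRPS18B (chr6:30617853-30617882, plus strand): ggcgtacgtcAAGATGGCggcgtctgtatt
MRPS18A (chr6:43687763-43687792, minus strand): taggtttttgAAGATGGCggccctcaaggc
MRPS27 (chr5:72320205-72320234, minus strand): ggtacgctccAAGATGGCtgcctccatagt
MRPL20 (chr1:1407259-1407288, minus strand): cgacccgggcAAGATGGCagcggcgctgcg
MRPS7 (chr17:75261888-75261917, plus strand): gtggccagccAAGATGGCtgcccccgcagt
MRPL51 (chr12:6493222-6493251, minus strand): ggtaaggcccAAGATGGCtgtcttcgcctt

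The letters CCGGAAG, bound by factors of the ETS family such as GABP, were found on either strand in 41.8% of the 67 windows and in 10.3% of all windows. GGGCGG (GC box) stood in 61.2% of member windows against 45% of all, the NRF1 motif in 10.4% against 5.78%, and CACGTG (E-box) in 7.46% against 7.26%. CCGGAAG and AAGATGGC can share the bases AAG where they meet. The next sequences are windows that end at the base before the transcript start in 3 members whose transcripts fell, with CCGGAAG or its complement CTTCCGG in capitals, and a stretch upstream of MRPL41, the member that fell furthest, with GC boxes (as CCGCCC) in capitals.
MRPS34 (chr16:1773135-1773209, minus strand): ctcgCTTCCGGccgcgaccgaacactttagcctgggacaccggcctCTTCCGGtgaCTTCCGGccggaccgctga
MRPL48 (chr11:73787794-73787873, plus strand): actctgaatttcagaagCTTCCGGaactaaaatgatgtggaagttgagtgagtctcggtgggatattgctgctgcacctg
MRPL43 (chr10:100987498-100987557, minus strand): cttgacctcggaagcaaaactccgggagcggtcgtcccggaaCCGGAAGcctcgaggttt
MRPL41 (chr9:137551649-137551788, plus strand): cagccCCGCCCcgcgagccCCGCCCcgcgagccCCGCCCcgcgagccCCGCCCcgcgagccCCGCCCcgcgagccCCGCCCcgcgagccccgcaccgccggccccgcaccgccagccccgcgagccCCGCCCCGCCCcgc
MRPS34 holds 3 ETS matches close to its start, and MRPL41 a tandem array of GC boxes. A match of letters is a description of the window and does not show that a factor binds there.

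Library totals ran from 24348594 to 80195050 counts, with EPZ5676 ALDH1+ replicate 2 the deepest and DMSO ALDH1+ replicate 3 next at 58004508. Of 8 epithelial markers all were present, at a summed level of 16200 to 20700 CPM (counts per 1000000 counts of the scaled library). Of 13 markers of fibroblasts, leukocytes and endothelium, 2 were at 0 in all libraries and 11, including those 2, stayed below 1 CPM. Their summed level was 12.9 to 17 CPM in DMSO and 21.6 to 27.1 CPM in EPZ5676 libraries, most of it from the collagen gene COL1A1 (8.76 to 13.9 CPM in DMSO, 18 to 24.6 CPM in EPZ5676). The list did not move as 1: averaged over populations COL1A1, PTPRC and VWF were called higher on treatment (0.87, 1.79 and 1.66 on the log2 scale) and CD14 lower (-0.84, edgeR). PTPRC and VWF are among the markers below 1 CPM, at no more than 0.912 and 0.535 CPM, and their SE were wide (0.33 and 0.41). Of the epithelial markers KRT17 (1.18) and EGFR (0.48) rose, and CDH1 (-0.61), KRT19 (-0.25), EPCAM (-0.21) and KRT8 (-0.18) fell. The part of such transcripts in the results on treatment below was not tested. The estrogen and progesterone receptor genes summed to 6.83 to 10.8 CPM. In bulk samples, fewer cells of a kind and less RNA per cell cannot be told apart.

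The members spanned a wide range of levels. Their median was 53.4 CPM over 12 libraries, 10 members reached 100 CPM and 6 stayed under 10 CPM. Levels between genes were compared as CPM per kilobase of the principal transcript, which ranges from 518 to 15582 bases among the members. MRPL4, a conserved large-subunit protein, was highest at 239 CPM per kb (347 CPM), followed by MRPL3 at 153 and MRPL37 at 150. MRPL3 belongs to the conserved core of the large subunit, and MRPL37 is a protein that only mitochondrial ribosomes have. At the other end stood MRPL30 (0.0159 CPM per kb), MRPL38 (2.13), MRPL53 (2.53), MRPL46 (3.46), MRPL42 (3.8) and MRPS24 (5.52). MRPL42 is low only per length: it had 59.3 CPM, above the median, over the longest transcript of 15582 bases. An exon of each of these 6 overlaps another gene on the same strand, which holds for 16 of 76 members, MRPL28, MRPL33 and MRPS6 among them. Another 25 overlap a gene on the other strand only. How the counting treated reads shared by genes, or their strand, is not stated in the sources used here. Among the other overlapping members, MRPL33 and MRPL20 rank 7 and 8 of 76 per kb, and MRPS17, MRPL12 and MRPS28 rank 61, 63 and 68. The rest rank between 14 (MRPS6) and 47 (MRPL28). The 6 members under 10 CPM are MRPL30, MRPL38, MRPL46, MRPL53, MRPS24 and MRPS28, and each has such an overlap. RN7SL657P, which overlaps MRPL20, had 0 counts. Whether overlap has a part in these levels was not tested.

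**Figure D1:**
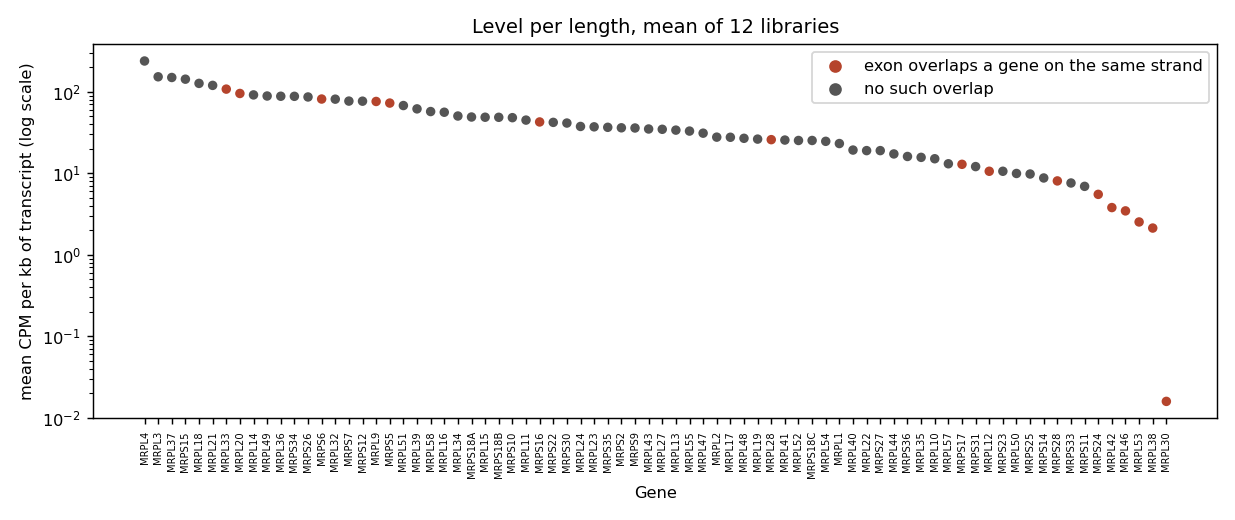
Mean level of each of the 76 mitochondrial ribosomal protein genes over 12 libraries, in CPM per kb of transcript on a log scale. Red points are the 16 genes with an exon that overlaps another gene on the same strand. MRPL4 leads at 239 CPM per kb, and the 6 lowest points are all red.

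Together the members took 0.491%, 0.515% and 0.56% of all counts in DMSO ALDH1+ replicates 1, 2 and 3 and 0.491%, 0.473% and 0.466% in DMSO ALDH1-. In EPZ5676 ALDH1+ the shares were 0.454%, 0.491% and 0.473%, and in EPZ5676 ALDH1- they were 0.449%, 0.44% and 0.487%. The DMSO ALDH1+ libraries were the highest as a group, at 0.522% ± 0.035 (SD, n = 3), against 0.477% ± 0.013, 0.473% ± 0.019 and 0.459% ± 0.025 in the other groups. The lowest of them, replicate 1, equalled single libraries of 2 other groups, so the groups touch.

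The shift of a library was taken as the mean over the 75 members of log2 CPM minus the same gene's mean over 12 libraries. DMSO ALDH1+ replicates 1, 2 and 3 lay at 0.03, 0.12 and 0.27, with 49, 69 and 71 of 75 members above their own mean. DMSO ALDH1- libraries lay at 0.00, -0.04 and -0.07, EPZ5676 ALDH1+ at -0.08, 0.06 and -0.04, and EPZ5676 ALDH1- at -0.11, -0.15 and -0.00. The median shift of all 16327 genes stayed between -0.00 and 0.01 in every library. The MRPS and the MRPL members, whose difference was not tested, were shifted by 0.24 and 0.29 in DMSO ALDH1+ replicate 3, by 0.03 and 0.08 in EPZ5676 ALDH1+ replicate 2 and by -0.13 and -0.16 in EPZ5676 ALDH1- replicate 2.

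The shifts differed within groups as well as between them. Replicate 3 was the highest of its group in DMSO ALDH1+ and in EPZ5676 ALDH1-, and the lowest in DMSO ALDH1-. In both ALDH1+ groups the deepest library had the highest shift. In the ALDH1- groups, whose totals differ less, the deepest library, replicate 2 in both, was in the middle in DMSO and the lowest in EPZ5676. Thinning all libraries at random to the smallest total changed the number of members called lower on treatment from 17 to 16 in ALDH1+ cells. In the average it went from 25 to 21. Of all genes 13.7% and 20% were lower in the main fit, and no share is given for the thinned counts. Thinning keeps the gene proportions of each library apart from sampling, so it cannot tell whether a library's shift goes with its depth.

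**Figure D2:**
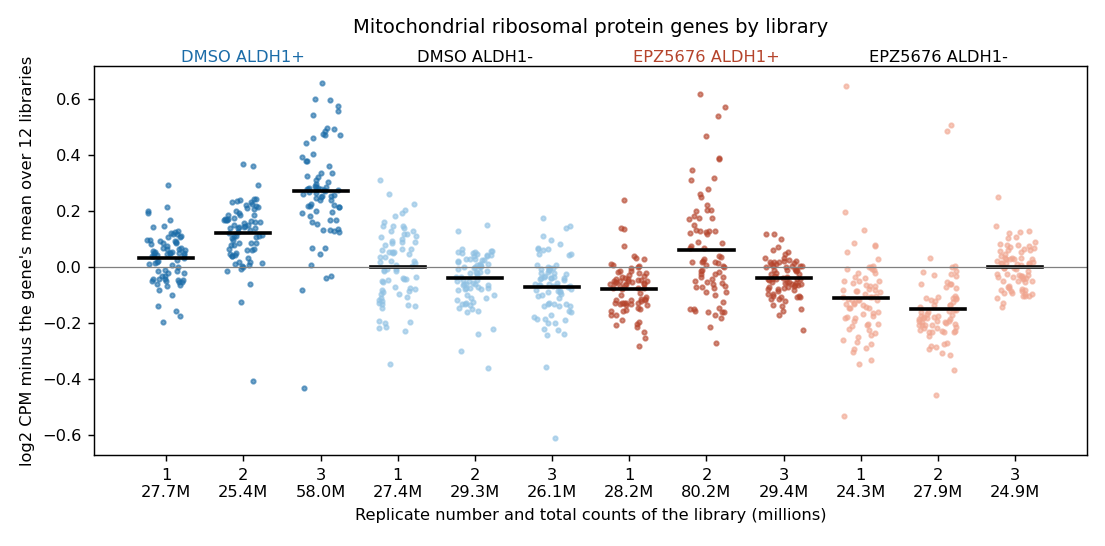
Each point is 1 of 75 mitochondrial ribosomal protein genes, placed at its log2 CPM minus its own mean over 12 libraries. Black bars are the mean over the genes, and columns are libraries labelled with replicate number and total counts. The bar of DMSO ALDH1+ replicate 3 is the highest at 0.27 and that of EPZ5676 ALDH1- replicate 2 the lowest at -0.15.

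EPZ5676 was compared with DMSO to find which members respond to DOT1L inhibition. Averaged over both populations, 25 of 75 members fell and 1 rose at an adjusted p below 0.05 (edgeR quasi-likelihood F test, Benjamini-Hochberg over 16327 genes). Among all genes 20% fell and 21.9% rose, against 33.3% and 1.33% of the members. In either direction 26 members were called, a share below the 41.9% of all genes. The changes were small: the median log2 fold change of the members was -0.13, from -0.36 in MRPL41 to 0.67 in MRPS24, against -0.02 for all genes. Of the 75 members 66 had a value below 0 (88%), against 53.1% of all genes. Of the members that fell, 12 carry MRPS and 13 MRPL symbols, out of 28 and 47 tested. In the fit with the replicate block 33 were lower and 3 higher (25% and 24.9% of all genes). The fall count dropped to 16 without EPZ5676 ALDH1- replicate 2, and lay between 16 and 33 over all 12 fits that left out a library.

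MRPL41 is a large-subunit protein without a bacterial counterpart that has also been linked to apoptosis. It stood at 36.9, 37.5 and 48.1 CPM in DMSO ALDH1+, 33, 32.5 and 31 CPM in DMSO ALDH1-, 27.1, 30.9 and 29 CPM in EPZ5676 ALDH1+, and 26.6, 26.2 and 29.1 CPM in EPZ5676 ALDH1-. Every EPZ5676 library lay below every DMSO library, the highest of the former at 30.9 and the lowest of the latter at 31 CPM. The averaged log2 fold change was -0.36 (SE 0.07, adjusted p = 7.6e-04, edgeR), a level of 0.777 times that in DMSO.

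MRPL48 belongs to the central protuberance, the crest of the large subunit that faces the small one. Its levels were 46.7, 45.9 and 56.7 CPM in DMSO ALDH1+ and 44.7, 41.6 and 42.2 CPM in DMSO ALDH1-. They were 36.7, 36.9 and 38.1 CPM in EPZ5676 ALDH1+ and 33.4, 34.8 and 38.3 CPM in EPZ5676 ALDH1-. The 6 libraries of each treatment did not overlap, and the log2 fold change was -0.35 (SE 0.06, adjusted p = 3.5e-04, edgeR).

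MRPS34, a small-subunit protein needed for that subunit's stability, stood at 97.5, 97.1 and 126 CPM in DMSO ALDH1+ and 96.5, 92.4 and 93.3 CPM in DMSO ALDH1-. In EPZ5676 it stood at 80.2, 80.4 and 80.4 CPM in ALDH1+ and 75.4, 76 and 87.3 CPM in ALDH1- cells. The treatments did not overlap although DMSO ALDH1+ replicate 3 stood well above the other DMSO libraries. The log2 fold change was -0.33 (SE 0.07, adjusted p = 9.7e-04, edgeR).

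MRPS15 is a conserved protein of the small subunit and, at 143 CPM per kb, the highest of the MRPS members. It went from 155, 161 and 177 CPM in DMSO ALDH1+ and 167, 147 and 149 CPM in DMSO ALDH1- to 127, 127 and 132 CPM and 126, 123 and 136 CPM in the respective EPZ5676 groups. All EPZ5676 libraries lay lower than all DMSO libraries, by -0.31 on the log2 scale (SE 0.05, adjusted p = 1.7e-04, edgeR), the smallest adjusted p among the members. MRPS15 and MRPL48 were also the 2 members called lower in each population taken alone. In ALDH1- cells these calls were lost in 3 (MRPS15) and 7 (MRPL48) of the 12 fits that left out a library.

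MRPL28, a conserved protein of the large subunit, stood at 45.6, 49.4 and 53.5 CPM in DMSO ALDH1+, 50.3, 45.6 and 45.4 CPM in DMSO ALDH1-, 37.9, 42.2 and 41.6 CPM in EPZ5676 ALDH1+ and 37.4, 37.8 and 44.4 CPM in EPZ5676 ALDH1-. MRPS11, a conserved protein of the small subunit, stood at 27.6, 27.3 and 32.5, at 25.1, 25 and 26.5, at 23.1, 24.1 and 24.9, and at 20.8, 21.6 and 23.9 CPM in the same order of groups. Both had no overlap between treatments, by a narrow margin. Their log2 fold changes were -0.26 (SE 0.06, adjusted p = 0.0031, edgeR) for MRPL28 and -0.24 (SE 0.06, adjusted p = 0.0051, edgeR) for MRPS11. MRPL28 overlaps TMEM8A on the same strand, so its count is less certain. In all, 9 members lay lower without overlap between 6 EPZ5676 and 6 DMSO libraries and 1 higher, which holds for 8.76% and 12.7% of all genes. Same-numbered libraries of both populations deviated together, so the 6 libraries of a treatment are not 6 independent replicates.

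MRPS24, a small-subunit protein, was the 1 member called higher. It stood at 3.6, 2.83 and 2.78 CPM in DMSO ALDH1+ and 3.56, 2.92 and 2.46 CPM in DMSO ALDH1-, against 4.42, 5.57 and 3.61 CPM in EPZ5676 ALDH1+ and 5.87, 5.33 and 3.85 CPM in EPZ5676 ALDH1-. The treatments were barely separate, at 3.6 and 3.61 CPM, and replicate 3 was the lowest library of each group. The log2 fold change was 0.67 (SE 0.14, adjusted p = 0.0016, edgeR), 1.59 times the DMSO level. The count of MRPS24 is uncertain: it summed to 1642 over 12 libraries, and the readthrough gene URGCP-MRPS24, which shares its exons, was at 0 counts in all of them.

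**Figure D3:**
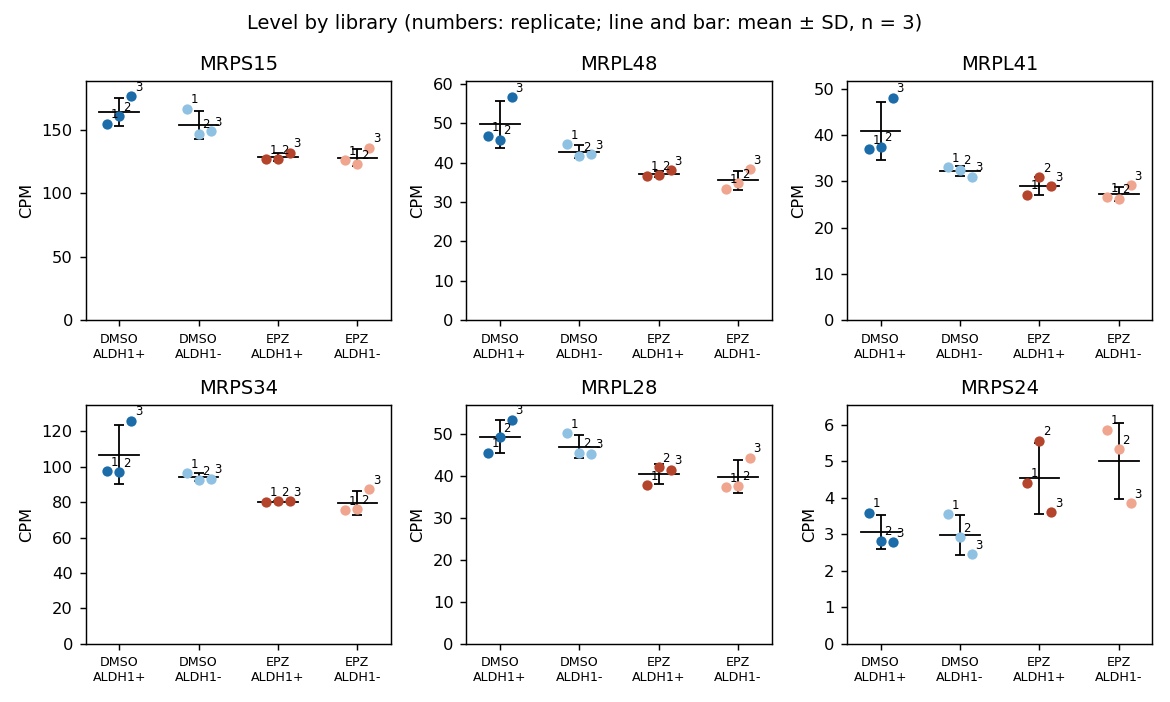
Level in CPM of 5 members that fell and of MRPS24, which rose, in each of the 12 libraries. Points are libraries labelled by replicate number, horizontal lines are group means and bars are SD (n = 3). In each panel the 6 EPZ5676 libraries lie on 1 side of the 6 DMSO libraries, by the smallest margin in MRPS24.

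The 3 genes of the MRPS18 family, which descend from 1 bacterial ribosomal protein, differed in their values. MRPS18B and MRPS18C lie in the small subunit and MRPS18A in the large one. MRPS18B fell by 0.24 on the log2 scale (SE 0.06, adjusted p = 0.0046, edgeR), from 84.8 ± 9 and 76.8 ± 2.9 CPM in DMSO ALDH1+ and ALDH1- to 68.3 ± 4.7 and 68.4 ± 5 CPM in EPZ5676 (SD, n = 3). MRPS18A fell by 0.17 (SE 0.06, adjusted p = 0.025, edgeR). MRPS18C had a value of -0.01 (SE 0.07, adjusted p = 0.9, edgeR). Whether MRPS18C differs from the other two was not tested.

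By place in the large subunit, 2 of 5 central protuberance members fell on average (MRPL48 and MRPL18, the latter at -0.18, SE 0.05), and the list's median was -0.18. Among all genes 20% fell, or 25% with the block. None of the 4 members of the L7/L12 stalk, which recruits translation factors, passed the test. MRPL11 was at -0.19, MRPL10 at -0.16 (adjusted p = 0.063), MRPL12 at -0.18 (0.16) and MRPL53 at 0.14 (0.36, edgeR). With the block MRPL10 and MRPL11 were called lower (edgeR). Of 6 tested members around the exit tunnel, where the new chain leaves, MRPL23 fell (-0.24, SE 0.08, adjusted p = 0.019, edgeR) and the others lay between -0.14 and 0.03. Members without a bacterial counterpart and those with one gave similar counts, 12 of 32 and 13 of 43 lower, with medians of -0.12 and -0.14. No difference between these lists was tested, and lists of 4 to 6 genes are too small to set apart from the share of all genes.

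In ALDH1+ cells alone, 17 members fell and 1 (MRPS24) rose, against 13.7% and 17.8% of all genes. The median log2 fold change was -0.17, against -0.01 for all genes, and 69 of 75 members lay below 0. At an unadjusted p below 0.05 there were 32 of 75 members (42.7%), close to the 41.9% of all genes. The 4 largest falls were in MRPL41 (-0.49, SE 0.10, adjusted p = 0.0015), MRPL48 (-0.42, SE 0.09, adjusted p = 0.0017), MRPS34 (-0.41, SE 0.09, adjusted p = 0.0034) and MRPL23 (-0.38, SE 0.11, adjusted p = 0.014; edgeR). In 30 members the 3 EPZ5676 libraries lay below the 3 DMSO libraries, which holds for 19.3% of all genes. The count rested on single libraries: 4 members were called lower without DMSO ALDH1+ replicate 3, the library with the highest shift, 6 without EPZ5676 ALDH1+ replicate 1, and up to 24 without DMSO ALDH1+ replicate 1. MRPL23 lost its call without DMSO ALDH1+ replicate 3 (-0.22), while MRPL41, MRPL48 and MRPS34 were called in every such fit, at -0.36, -0.32 and -0.28 without that library. With the replicate block 32 members were called lower (19.6% of all genes).

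In ALDH1- cells 3 members fell (MRPS15, MRPL48 and MRPS27, a protein with RNA-binding repeats) and MRPS24 rose, against 9.04% and 13.6% of all genes. The share of members that fell, 4%, was below that of all genes. The median was -0.05 against -0.02. The libraries did not overlap in 17 members that lay lower and 4 that lay higher, against 19.4% and 19.7% of all genes. MRPS15 was at -0.27 (SE 0.07, adjusted p = 0.014), MRPL48 at -0.27 (SE 0.09, adjusted p = 0.038) and MRPS27 at -0.23 (SE 0.07, adjusted p = 0.04; edgeR). MRPS27 went from 57.9, 58.4 and 52.9 CPM in DMSO to 46.9, 46 and 51.6 CPM in EPZ5676. The call of MRPS27 was lost in 6 of the fits that left out a library, that of MRPL48 in 7 and that of MRPS15 in 3. With the replicate block 11 were called lower (14.8% of all genes). Leaving out libraries gave 0 (without DMSO ALDH1- replicate 1, or EPZ5676 ALDH1- replicate 1 or 2), 1 (without DMSO ALDH1- replicate 2, or EPZ5676 ALDH1+ replicate 1 or 2), 5 (without DMSO ALDH1+ replicate 3) and 8 (without EPZ5676 ALDH1- replicate 3). MRPS24 was at 0.60 (SE 0.20, adjusted p = 0.033) in ALDH1+ and 0.75 (SE 0.21, adjusted p = 0.017) in ALDH1- cells, and either call was lost in 4 of the fits that left out a library (without DMSO replicate 2 or 3, or EPZ5676 replicate 1 or 2, of the same population).

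**Figure D4:**
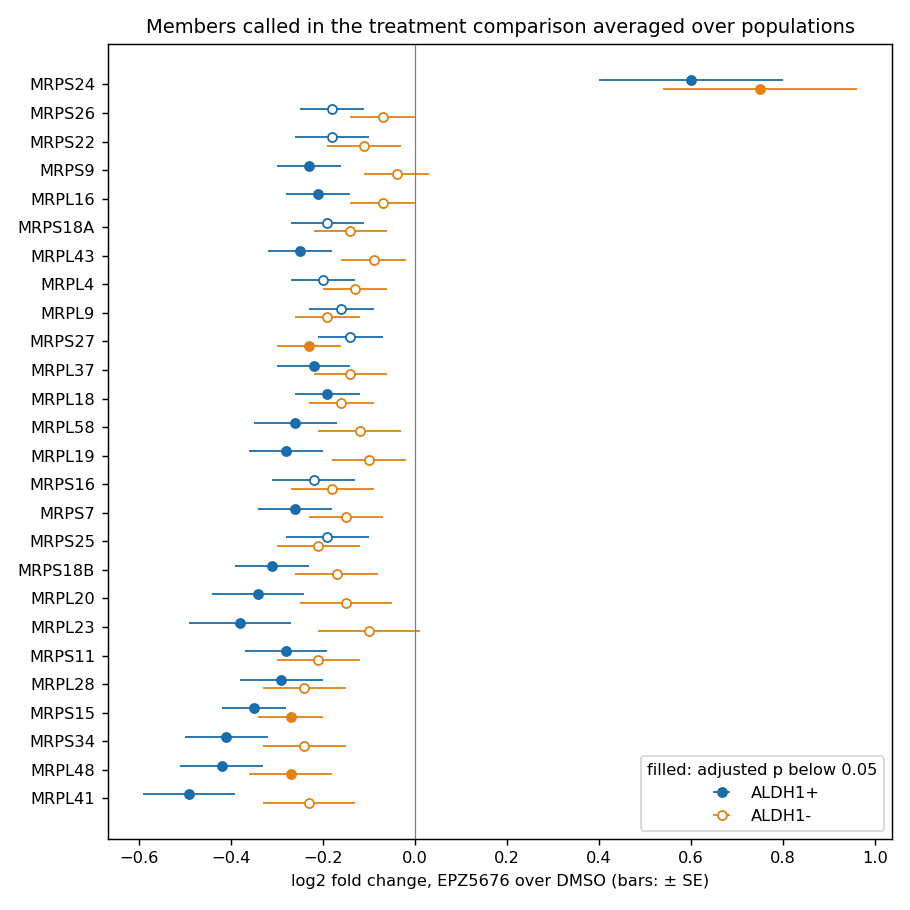
Log2 fold change of EPZ5676 over DMSO (± SE) in ALDH1+ and in ALDH1- cells for the 26 members called in the average of both. Filled points passed an adjusted p of 0.05 in that population. MRPS24 stands alone to the right, and most ALDH1+ points lie further left than their ALDH1- partners.

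The fall was nominally larger in ALDH1+ than in ALDH1- cells in 69 of 75 members, and the median of the difference between both effects was -0.11 on the log2 scale. No member was called for this interaction (edgeR, smallest adjusted p 0.98), 0 of 75 had an unadjusted p below 0.05, and DESeq2 called none, as in all genes (0%, edgeR). The populations are therefore not shown to differ in their response. The members share their libraries. The median difference was -0.05 without DMSO ALDH1+ replicate 3 and -0.17 without EPZ5676 ALDH1+ replicate 2.

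ALDH1+ and ALDH1- cells were compared to ask whether the sorted populations differ in these genes without and with EPZ5676. In DMSO the members leaned higher in ALDH1+ cells, with a median log2 fold change of 0.18 against -0.01 for all genes and 69 of 75 above 0. No member passed the adjusted threshold (edgeR, smallest adjusted p 0.16), and neither did any other gene (0%). At an unadjusted p below 0.05 there were 36 of 75 members (48%), against 17.8% of all genes. In 31 members the 3 ALDH1+ libraries all lay above the 3 ALDH1- libraries, which holds for 10.6% of all genes. These DMSO ALDH1+ libraries also enter the treatment comparison in ALDH1+ cells with the opposite sign, so the lean upward here and the fall there are not independent. With the replicate number as a block, 12 members were called higher and 0 lower (3.45% and 5.02% of all genes). DESeq2 called 5 higher, with no share of all genes given for that setting. The block's count depended on which deep library was in: it was 1 without DMSO ALDH1+ replicate 3 and 23 without EPZ5676 ALDH1+ replicate 2.

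Under EPZ5676 the lean was smaller, at a median of 0.06 with 57 of 75 members above 0. No member was called with or without the block or by DESeq2 (edgeR, 0.0184% of all genes called, all higher), and 5 of 75 had an unadjusted p below 0.05, against 6.32% of all genes. The block called 0.19% of all genes higher and 0.269% lower. In 7 members the ALDH1+ libraries all lay above the ALDH1- libraries and in 1 all below, against 4.95% and 4.62% of all genes. Averaged over both treatments the median was 0.12, and 68 of 75 members lay above 0. Again none was called in the main fit, which leaves out the pairing (edgeR, smallest adjusted p 0.053 in MRPL18; 0.0612% of all genes called higher). At an unadjusted p below 0.05 there were 34 of 75 (19.6% of all genes). The block called 21 members higher and 0 lower, 28% of the members against 5.81% and 6.4% of all genes. DESeq2 called 12 members higher, again with no share of all genes given. Without DMSO ALDH1+ replicate 3 the block called 11, and without EPZ5676 ALDH1+ replicate 2 it called 6. Without the block, leaving out a library gave 0 to 9, with 9 without DMSO ALDH1+ replicate 1, 6 without EPZ5676 ALDH1- replicate 3 and 2 without EPZ5676 ALDH1+ replicate 3.

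The members described next are named after their values were seen, from those that the block called. MRPL18, a central protuberance protein, stood at 142, 146 and 144 CPM in DMSO ALDH1+ and 117, 123 and 120 CPM in DMSO ALDH1-. Under EPZ5676 it stood at 119, 135 and 125 CPM in ALDH1+ and 104, 102 and 115 CPM in ALDH1- cells. Within either treatment the populations did not overlap. The averaged log2 fold change was 0.25 (SE 0.05), with an adjusted p of 0.053 without and 0.004 with the block (edgeR).

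MRPS6, a small-subunit protein, was higher by 0.30 (SE 0.06), at 86.4, 94.6 and 104 CPM in DMSO ALDH1+ against 72.8, 77.6 and 76.1 CPM in DMSO ALDH1-, and 77, 92 and 81.1 against 68.6, 64.7 and 74.5 CPM under EPZ5676 (adjusted p 0.067 without and 0.0042 with the block, edgeR). MRPS33, also of the small subunit, was the 1 member whose 6 ALDH1+ libraries all lay above its 6 ALDH1- libraries, which holds for 0.361% of all genes. It stood at 32.1, 37.5 and 38.7 and at 30.3, 44.1 and 32.2 CPM in ALDH1+ cells of DMSO and EPZ5676, against 29.9, 29.3 and 27.8 and 28.9, 26.5 and 30.2 CPM in ALDH1- cells. The margin was narrow, 30.3 over 30.2 CPM, and the adjusted p was 0.099 without and 0.018 with the block (edgeR).

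Among members called by the block the highest averaged values were in MRPL54 (0.35, SE 0.11), MRPL33 (0.34, SE 0.09), MRPS33 (0.32, SE 0.09) and MRPL13 (0.31, SE 0.09). Of the 21, 16 carry MRPL and 5 MRPS symbols, out of 47 and 28 tested. Across the 75 members the averaged population effect had a Spearman rho of -0.33 with transcript length, as a description over genes that share all their libraries. The same correlation of the treatment effect was 0.02.

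**Figure D5:**
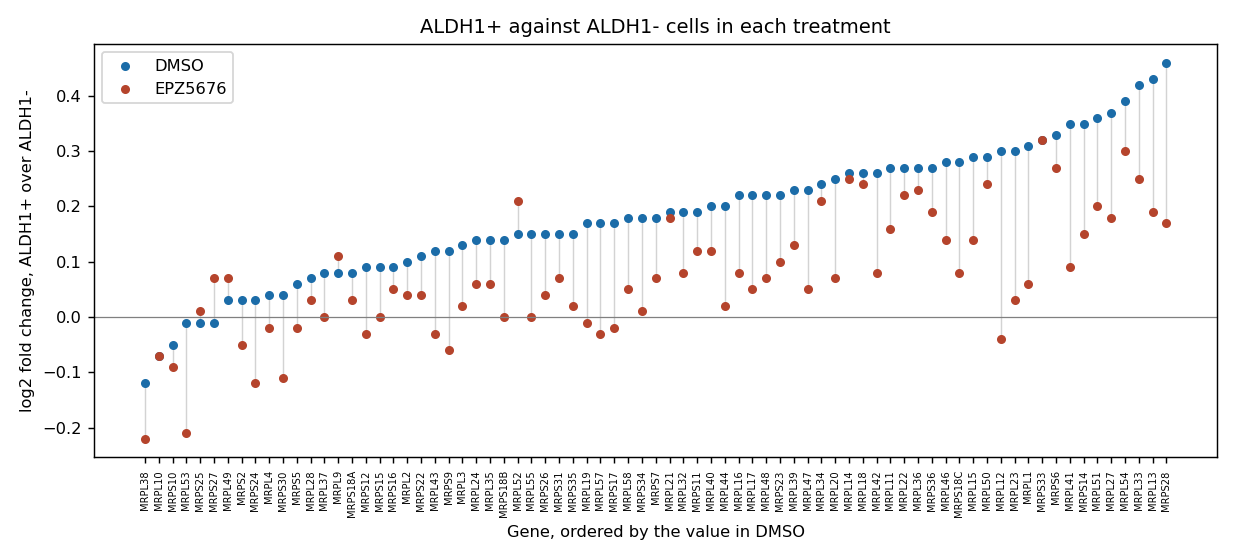
Log2 fold change of ALDH1+ over ALDH1- cells for each of the 75 members, ordered by the value in DMSO, with the value under EPZ5676 joined to it by a line. Of the DMSO points 69 lie above 0, of the EPZ5676 points 57, and most red points lie lower than the blue ones.

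Libraries with the same replicate number in different groups deviated together, and the number itself was tested across groups in the fit with group and replicate. It passed in 6 of 75 members (edgeR F test), against 15.6% of all genes. MRPL35 was higher in replicate 3 than in replicate 1 by 0.24 on the log2 scale (adjusted p = 0.0063), MRPL27 by 0.35 (adjusted p = 0.023), MRPL51 by 0.26 (adjusted p = 0.026), MRPS18B by 0.18 (adjusted p = 0.027) and MRPL19 by 0.16 (adjusted p = 0.049; edgeR). MRPS24 went the other way, at -0.44 (adjusted p = 0.042, edgeR). MRPL35 stood at 71.7, 65.8, 60.8 and 61.3 CPM in the 4 libraries numbered 3 and between 50 and 62 CPM in the 8 others. The call of MRPL19 was lost in all 12 fits that left out a library, that of MRPS24 in 7, MRPS18B in 6, and MRPL27 and MRPL51 in 4 each, while MRPL35 was called in all 12. Leaving out a library gave 1 to 8 members called. It was 1 without DMSO ALDH1+ replicate 1 or EPZ5676 ALDH1- replicate 3, 2 without EPZ5676 ALDH1+ replicate 1, and 3 without DMSO ALDH1+ replicate 3 or EPZ5676 ALDH1- replicate 1.

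Other genes that the mitochondrial ribosome needs are given by list for the averaged treatment comparison, in which 20% of all genes fell and 21.9% rose. None of the 5 ribosome subunits without an MRP symbol was called, with a median of -0.07. Of 24 tested genes for assembly and ribosomal RNA modification 4 fell and 1 rose, with a median of -0.06: the GTPase MTG2 (-0.20, SE 0.05, adjusted p = 0.0039) and the pseudouridine synthase TRUB2 (-0.24, SE 0.06, adjusted p = 0.0051) fell, and the silencing factor MALSU1 (0.27, SE 0.06, adjusted p = 0.0015) rose (edgeR). Of 16 translation factors and partners 3 fell, with a median of -0.10: LRPPRC, which stabilises mitochondrial messenger RNA (-0.30, SE 0.05), the elongation factor TUFM (-0.18, SE 0.06) and the insertase OXA1L (-0.16, SE 0.04). Of 17 mitochondrial tRNA synthetases 7 fell and 1 rose, with a median of -0.07, EARS2 at -0.29 (SE 0.06), NARS2 at -0.24 (SE 0.05) and WARS2 at -0.26 (SE 0.06). None of 5 mitochondrial transcription genes was called, with a median of -0.01. All 5 medians were nearer to 0 than that of the members (-0.13, all genes -0.02). The counts for assembly genes and translation factors are at or below the share of all genes, while the 7 of 17 tRNA synthetases are above it. No difference between these lists and the members was tested.

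The respiratory chain subunits, whose mitochondrial partners this ribosome makes, fell in 9 of 36 tested genes of complex I (1 rose, median -0.12) and in 14 of 34 of complexes III, IV and ATP synthase (0 rose, median -0.16). Against the 20% of all genes that fell, the complex I count is near the background. Values lay below 0 in 34 of the 36 and 33 of the 34, against 66 of 75 members and 53.1% of all genes. Those that fell included UQCRC2 (-0.26, SE 0.05) and CYC1 (-0.26, SE 0.05) of complex III and NDUFB10 (-0.31, SE 0.06) of complex I. Between populations none of these was called without the block. With it, 19 of 36 complex I genes and 22 of 34 of the others were higher in ALDH1+ cells, with medians of 0.22 and 0.23, against 21 of 75 members with a median of 0.12 and 5.81% of all genes. Of complex I, 1 gene, NDUFA13, was lower (-0.40, SE 0.15, adjusted p = 0.04 with the block, edgeR), against 6.4% of all genes.

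Of 8 tested regulators known to act on nuclear genes for mitochondrial proteins, 4 fell on treatment, against 20% of all genes. MYC fell by 0.48 (SE 0.05, adjusted p = 1.3e-06) and NRF1 by 0.14 (SE 0.06, adjusted p = 0.047, edgeR). Of the factors whose letters are shown above, YY1 fell by 0.12 (SE 0.04, adjusted p = 0.03) and the GABP subunit GABPA by 0.12 (SE 0.05, adjusted p = 0.04; edgeR). The calls of NRF1, YY1 and GABPA lie near the threshold. Whether any of these changes bears on the members was not tested. The treatment values of members with and without each motif were set side by side, with no test of the difference. For ETS letters 11 of 27 with and 13 of 39 without were lower, with medians of -0.14 and -0.13. For YY1 letters 5 of 19 with and 19 of 47 without were lower, with medians of -0.09 and -0.14. For the NRF1 motif 1 of 6 with and 23 of 60 without were lower, with medians of -0.05 and -0.14, and for the E-box 1 of 5 and 23 of 61, with medians of -0.03 and -0.14. For the GC box 15 of 41 with and 9 of 25 without were lower, with medians of -0.12 and -0.15. In the population comparison with the block, 5 of 19 members with YY1 letters and 13 of 47 without were higher.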

How the data were processed

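The authors deposited 1 table of read counts per gene, whole numbers with no normalization. Trim Galore, STAR and build hg19 were used, per the submitters' processing notes, and a directional kit, per the labels' protocols. Which counting program, strand setting and annotation were used is not given in the sources used here. Members were matched by Ensembl identifier without version. Members and gene lists were chosen with earlier results of these data known. Counts were fitted in R 4.3.3 with edgeR 4.0.16: filterByExpr by group (16327 genes), TMM scaling, 1 quasi-likelihood fit of 12 libraries with a term per group, F tests for 7 comparisons and for the replicate number, Benjamini-Hochberg adjustment over all genes, called below 0.05. The code was tested on simulated data. SE was derived from each fold change with its F statistic. CPM uses TMM-scaled totals, and log2 CPM a prior count of 2. Every member may be named. Values by library were set for the largest called rises and falls of each comparison, the smallest p for the replicate number, the MRPS18 genes and the highest and lowest levels. Of other lists, up to 4 called genes with the smallest p were allowed. Some genes that this allowed are not reported here. Gene models and lengths are from GENCODE 29 (GRCh38), so coordinates of the hg19 table are not given. Alternatives were RLE (median-ratio) scaling, unscaled totals, no filter, at least 1 CPM in 3 libraries, DESeq2 1.42.0, the replicate block and leaving out each library. After the data were seen, thinning to the smallest total, fits without the 2 deepest libraries, and the block without either were added.

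Replicate numbers recur in all groups. Over 12354 genes whose mean log2 CPM reached 1, deviations from group means of same-numbered libraries had correlations of 0.17 to 0.65 in 18 pairs, against -0.66 to 0.22 for other numbers. Over all 16327 genes these were 0.09 to 0.41 and -0.43 to 0.08. The best match of a library carried its own number in 36 of 36 cases, so the numbers were taken to pair the libraries. The main fit leaves this pairing out, and the replicate block takes it in. In the population average the choice decides the count, with 0 members called higher in the main fit and 21 with the block. The labels do not say what they share. No 2 libraries of a group were alike within counting error (chi-square per degree of freedom 3.92 to 34.12).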

Additional observations from a re-analysis of the deposited data

How the results depend on the processing

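Counts below are members called. Shares of all genes are given above only for the main fit and for the block with all libraries. The counts under other settings therefore do not show whether the members stand out from all genes. For EPZ5676 against DMSO, the replicate block (pairing by number) gave 32 lower in ALDH1+, 11 lower in ALDH1- and 3 higher in the average. For ALDH1+ against ALDH1- it gave 12 higher in DMSO and 21 in the average. It changed no call to the opposite direction. For the population average RLE scaling gave 1 higher, no filter 21 and DESeq2 12, and in DMSO no filter gave 14 and DESeq2 5. Treatment counts moved with total counts to 1 lower in ALDH1-, and with no filter to 2 higher in ALDH1- and 3 in the average.

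Without the 2 deepest libraries, treatment gave 5 lower and 0 higher in ALDH1+, 5 lower and 2 higher in ALDH1-, and 16 lower in the average. The block without EPZ5676 ALDH1+ replicate 2 gave 40 lower and 0 higher in ALDH1+, 12 lower and 3 higher in ALDH1-, 39 lower in the average, and 23 (DMSO) and 6 (average) higher between populations. The block without DMSO ALDH1+ replicate 3 gave 12 lower and 2 higher in ALDH1-, 3 higher in the average, and 1 and 11 higher between populations. The cause of these moves was not tested. Leaving out 1 library gave 4 to 24 lower and 0 to 2 higher in ALDH1+, 0 to 8 lower and 0 to 1 higher in ALDH1-, 16 to 33 lower and 1 to 2 higher in the average, 0 to 9 higher in the population average, and 1 to 8 for the replicate number. Of the values of named members under the other settings, 325 stayed on their side of the threshold, 65 lost the call and 0 reversed. Thinning, and the filter at 1 CPM, moved no count by over 1.5 times. With 3 libraries a group, members at a few CPM have the widest errors.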

Other observations

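Many members share a promoter region with another gene. In GENCODE 29, 17 of 76 members (22.4%) have a protein-coding gene that starts within 1000 bases on the other strand and runs away from them, against 7.38% of all protein-coding genes. For 15 members both genes were tested. In the averaged treatment comparison 7 partners and 4 of these members were called (edgeR), against 41.9% of all genes, so the count of partners is near the background. Both genes were called in 2 cases: MRPL18 (-0.18) with the chaperonin subunit TCP1 (-0.21, SE 0.05, adjusted p = 0.0023), 63 bases apart, and MRPL41 (-0.36) with PNPLA7 (-0.49, SE 0.18, adjusted p = 0.038), 665 bases apart. MRPS11 and MRPL46 are partners of each other, 34 bases apart, at -0.24 (adjusted p = 0.0051) and -0.01 (adjusted p = 0.94). MRPL52 lies 59 bases from the amino acid transporter gene SLC7A7, which rose by 1.98 (SE 0.27, adjusted p = 3.1e-05) while MRPL52 was at 0.04 (adjusted p = 0.71). MRPL36 and the complex I gene NDUFS6, 34 bases apart, were both at 0.25 in ALDH1+ against ALDH1- cells (adjusted p = 0.11 each, edgeR). The pairs were named after their values were seen.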
